A study of Rattus norvegicus with 23 samples.

Results

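Rarb and Tgm2 are 2 genes that textbooks list among those switched on by retinoic acid, and their transcripts were followed here in rat neural stem cells kept in a medium that contains retinoic acid. The 2 were taken by identifier, ENSRNOG00000024061 given as Rarb and ENSRNOG00000012956 given as Tgm2, from a deposited table of 32883 rat gene identifiers, and only identifiers with 10 or more counts in 2 or more libraries were to be used. Of the 2, 1 met that minimum: ENSRNOG00000024061, with 10 or more counts in 17 of 23 libraries. ENSRNOG00000012956 reached it in 0 libraries, with at most 8 counts in any, and is described by its counts alone. The deposited table holds identifiers without names, and 0 of the 32883 matched the RefSeq table used here, so the names are those supplied with the identifiers and the pairing could not be checked.

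The cells were wild-type (WT) neural stem cells from the hippocampus of adult female rats, cells that can form neurons and glia. All 8 groups, those labelled 0 h included, carry the same treatment label, a mixed differentiation medium of DMEM-F12 and N2 with retinoic acid at 1 uM and fetal bovine serum (FBS) at 1%. Cells on a stiff substrate were sampled at 4 labelled times, 0, 12, 24 and 36 h, in 3 libraries per time, and cells on a soft substrate at the same times in 3 libraries per time, or 2 at 12 h. The series asked which genes depend on substrate stiffness. The labels give neither the stiffness of either substrate nor how long the cells had been in the medium at 0 h, and there is no group without retinoic acid, so time in culture, serum and retinoic acid cannot be told apart. The labels number the libraries by round and do not say that rounds are separate cultures or animals, so a p-value measures the spread between these libraries, which may be technical.

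Retinoic acid, made from vitamin A, enters the nucleus and binds retinoic acid receptors, which sit on DNA as pairs with retinoid X receptors. The pair binds response elements made of 2 copies of a short half-site, and the hormone turns it from a repressor into an activator of the gene nearby. Rarb encodes retinoic acid receptor beta, so it is both a receptor of the pathway and one of its best known targets: in human and mouse one of its promoters holds such an element. Tgm2 encodes tissue transglutaminase, an enzyme that crosslinks proteins and whose induction by retinoic acid is known from several human and rodent cell types. In hippocampal progenitors retinoic acid is used to push cells toward neurons.

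The response element is shown first because Rarb is the member with a measurable course. RefSeq's promoter table (build GRCr8) has a window under the symbol Rarb and none under Tgm2, so 1 of the 2 members has a sequence. It runs from 250 bases before to 50 bases after the annotated start, on the plus strand at chr15:11336142-11336441. Capitals mark the half-sites of a direct repeat spaced by 5 bases, known as a DR5 element.
Rarb promoter window: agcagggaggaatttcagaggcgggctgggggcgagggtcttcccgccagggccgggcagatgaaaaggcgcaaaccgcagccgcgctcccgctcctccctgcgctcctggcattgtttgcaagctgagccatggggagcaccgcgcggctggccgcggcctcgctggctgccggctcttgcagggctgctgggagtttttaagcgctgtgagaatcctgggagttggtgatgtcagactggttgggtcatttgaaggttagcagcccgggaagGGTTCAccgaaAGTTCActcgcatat

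The element covers bases 25 to 41 after the annotated start. Only 1 other window of the retinoid gene lists held a DR5 element, that of Cyp26a1, the enzyme that breaks retinoic acid down, on the opposite strand. The 2 are set side by side, each read on its own strand, with the half-sites in capitals.
Rarb element: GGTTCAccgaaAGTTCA
Cyp26a1 element: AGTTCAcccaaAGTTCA
The second half-site is the same in both, AGTTCA. Both strands of every window of 300 bases were searched for the DR5 element, whose half-sites take 1 of 2 bases at some positions, with overlaps counted. It was found in 128 of 33469 windows, 0.382%. The stricter form GGTTCANNNNNAGTTCA was in 3 windows (0.00896%), and the 17 bases of the Rarb element in 1. Single half-sites are common: GGTTCA was in 11.7% of windows and AGTTCA in 14.5%. Repeats spaced by 2 bases or by 1 base, the other forms these receptors bind, were found in 0.17% and 0.233% of windows and not in that of Rarb. A match describes letters in a window. It does not show that a receptor was bound there or that this start was used in these cells, since the libraries read tags near the 3' end and transcripts from all Rarb promoters that share an end are counted together.

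For the retinoid lists only the first window of each symbol was searched. The DR5 element, in 0.382% of all windows, was held there by those of Rarb and Cyp26a1. Of 6 receptors (Rara, Rarb, Rarg, Rxra, Rxrb and Rxrg), all with a window, 1 held it, and of the 3 breakdown enzymes, all with a window, 1 held it. None was found in the 8 windows for 9 genes of retinoid synthesis and storage, the 4 windows for 6 genes of binding and uptake, or the 5 windows for 8 receptor co-regulators. Among 16 genes listed as induced by retinoic acid, 12 had a window and 2 held the element, the Rarb and Cyp26a1 already named. Among 8 transglutaminases 6 had a window and 0 held it. The window of 1 of them, Tgm7, held a repeat spaced by 2 bases, which was in 0.17% of all windows. No other listed window held a repeat spaced by 2 bases or by 1 base. Levels of these other genes were not analysed here, since their names could not be tied to identifiers.

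Total counts per library ran from 2462360 to 6811157, and 13094 to 14547 identifiers had at least 1 count. At 12 h the ranges did not overlap, with 2462360 to 4803755 counts in the stiff libraries and 5428086 to 6519349 in the soft ones. Levels are given as CPM, the count scaled to the TMM-adjusted total of its library. A change counts as called when edgeR's quasi-likelihood test gave it a p under 0.05 after Benjamini-Hochberg adjustment over all 11857 tested genes, and this is the adjusted p printed below.

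Rarb was almost without counts at 0 h and was readily detected from 12 h on, on both substrates. At 0 h it had 2, 2 and 1 counts in the stiff libraries and 2, 3 and 1 counts in the soft libraries, which is 0.325, 0.312 and 0.191 CPM on stiff and 0.392, 0.487 and 0.242 CPM on soft. These are levels at or under the 3 counts that an unseen transcript may still have. At 12 h the level was 25.4, 34.4 and 27.1 CPM on stiff and 21.1 and 23.7 CPM on soft. At 24 h it was 34.0, 34.0 and 48.0 CPM on stiff and 43.9, 34.2 and 48.4 CPM on soft. At 36 h it was 46.6, 48.0 and 38.2 CPM on stiff and 46.0, 40.2 and 40.0 CPM on soft. All 17 libraries from 12 h on, at 21.1 to 48.4 CPM, lay far above all 6 libraries of 0 h, at 0.191 to 0.487 CPM, with no overlap. From 24 h on the libraries of both substrates and both times overlapped.

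**Figure D1:**
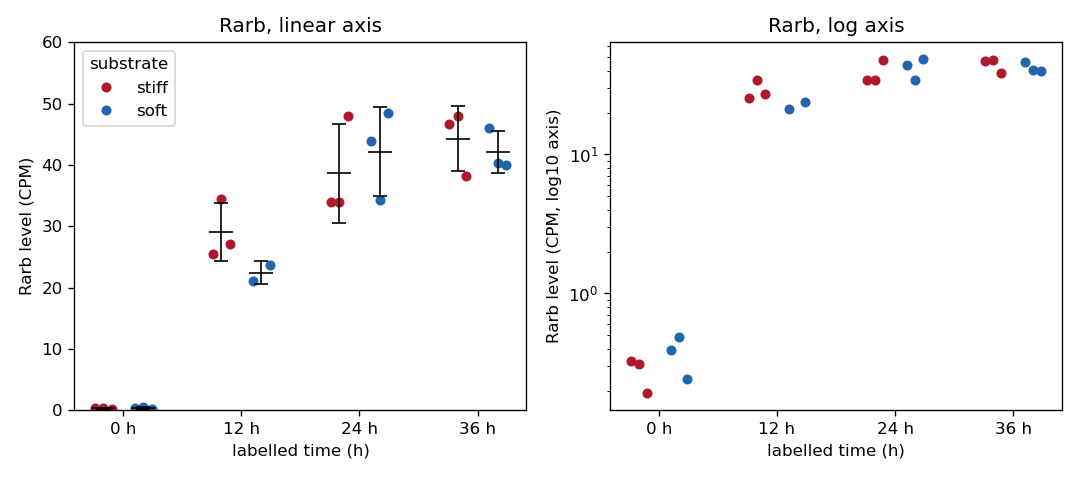
Rarb level in CPM of each library at 0, 12, 24 and 36 h, stiff (red) left of soft (blue), on a linear axis with mean and SD (black) and again on a log10 axis. The 6 libraries at 0 h sit between 0.191 and 0.487 CPM and the 17 later ones between 21.1 and 48.4 CPM.

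As a fold, the first 12 h carried most of the rise. In CPM, the 12 h mean was 65.5% of the highest group mean on stiff and only 53.2% on soft. Rarb averaged 29.0 ± 4.74 CPM at 12 h and 0.276 ± 0.0739 CPM at 0 h on stiff (SD, n = 3 each), a log2 fold change of 6.55 (edgeR adjusted p = 8.43e-17). On soft it averaged 22.4 ± 1.82 CPM at 12 h (SD, n = 2) and 0.374 ± 0.124 CPM at 0 h (SD, n = 3), a log2 fold change of 5.76 (edgeR adjusted p = 6.47e-15). Both steps passed the test. Genes called higher in this step made up 11.8% of tested genes on stiff and 15.2% on soft, and Rarb ranked 7 and 11 by fold change among the 11857. Because the 0 h libraries hold so few counts, the fitted fold changes depend on the small count that the fit adds. A standard error taken from the F statistic is too small for such a change, so none is printed. As summed counts, 282 against 5 on stiff gave a ratio of 99.9 (exact 95% interval 42.3 to 310.1), and 258 against 6 on soft gave 58.0 (26.3 to 159.4). These intervals cover counting error only. In libraries from bulk cells, more cells that express a gene and more of its RNA per cell cannot be told apart.

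Over the whole course Rarb was called higher on both substrates, with 44.3 ± 5.30 CPM at 36 h and 0.276 ± 0.0739 CPM at 0 h on stiff, and 42.1 ± 3.40 CPM at 36 h and 0.374 ± 0.124 CPM at 0 h on soft (SD, n = 3 each). The log2 fold change was 7.18 on stiff (edgeR adjusted p = 2.18e-19). On soft it was 6.67 (edgeR adjusted p = 1.64e-18). As summed counts the ratio was 159.6 on stiff (exact 95% interval 68.0 to 493.4) and 107.2 on soft (48.9 to 293.4). A rise over this interval was common, with 29.2% of tested genes called higher on stiff and 28% on soft. The size was not: the median absolute log2 fold change of all tested genes was 0.55 on stiff and 0.52 on soft, and Rarb ranked 16 on stiff and 28 on soft from the top. A log2 fold change over 4, a 16-fold rise, was fitted for 133 tested genes on stiff and 131 on soft, 99 of them on both, Rarb included. Every round with both times showed the rise, with ratios of 143.3, 153.8 and 199.8 on stiff and 117.4, 82.6 and 165.8 on soft. Each of these ratios divides by a 0 h library with 1 to 3 Rarb counts, so its size is very uncertain.

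**Figure D2:**
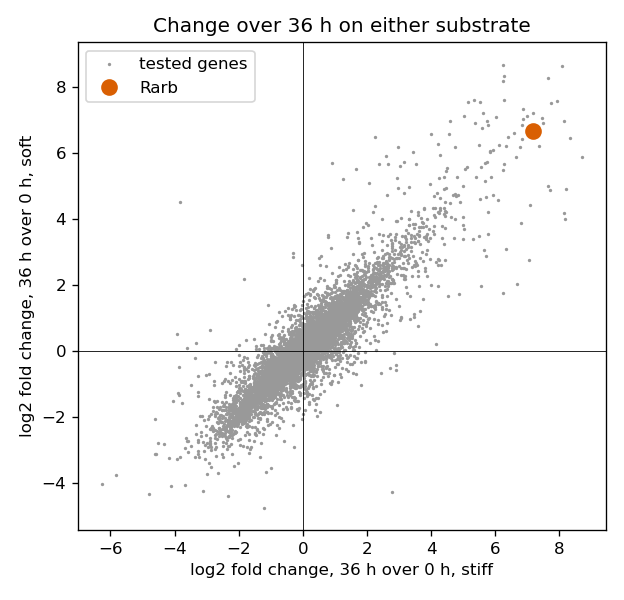
Log2 fold change from 0 h to 36 h on stiff (x axis) and on soft (y axis) for each of the 11857 tested genes (grey), with Rarb in orange. Rarb lies at 7.18 and 6.67, near the upper end of both axes.

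After 12 h the rise was smaller as a fold, and it was better resolved on soft. On soft Rarb averaged 42.2 ± 7.25 CPM at 24 h (SD, n = 3) and 22.4 ± 1.82 CPM at 12 h (SD, n = 2), 1.86-fold (log2 fold change 0.90, SE 0.175, edgeR adjusted p = 0.000115), where 19% of tested genes were called higher. All 3 soft libraries at 24 h were above both at 12 h. On stiff it averaged 38.6 ± 8.08 CPM at 24 h and 29.0 ± 4.74 CPM at 12 h (SD, n = 3 each), 1.36-fold (log2 fold change 0.44, SE 0.159, edgeR adjusted p = 0.0346), where 14.5% of tested genes were called higher. The stiff ranges met: 2 libraries at 24 h, both at 34.0 CPM, lay just under the 34.4 CPM of round 2 at 12 h. The call on stiff was close to the threshold and did not survive every alternative. The edgeR adjusted p was 0.186 without stiff 12 h replicate 1, 0.101 without stiff 12 h replicate 3, 0.268 without stiff 24 h replicate 3 and 0.0615 with all libraries thinned to the smallest total, within a range of 0.0152 to 0.268 over all its alternatives. By round the 24 h level was 1.34, 0.989 and 1.77 times that of 12 h on stiff, and 2.08 and 2.04 times in the 2 rounds with both soft libraries.

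Between 24 h and 36 h no change was called on either substrate. On stiff Rarb averaged 44.3 ± 5.30 CPM at 36 h and 38.6 ± 8.08 CPM at 24 h (SD, n = 3 each), a fold of 1.15 with a 95% interval of 0.931 to 1.41 (edgeR adjusted p = 0.471), where 4.6% of tested genes were called higher. On soft it averaged 42.1 ± 3.40 CPM at 36 h and 42.2 ± 7.25 CPM at 24 h (SD, n = 3 each), a fold of 1.00 with an interval of 0.811 to 1.24 (edgeR adjusted p = 0.991), where 4.66% were called higher. The interval on stiff still holds a change of the size fitted there between 12 h and 24 h. As a share of the highest group mean on its own substrate, Rarb stood at 0.624% at 0 h, 65.5% at 12 h and 87.3% at 24 h on stiff, whose highest mean was at 36 h. On soft it stood at 0.886% at 0 h, 53.2% at 12 h and 99.8% at 36 h, with the highest mean at 24 h.

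No difference in Rarb between substrates passed the test at any time. At 0 h the level averaged 0.276 ± 0.0739 CPM on stiff and 0.374 ± 0.124 CPM on soft (SD, n = 3 each). The fold of stiff over soft was 0.739 with a 95% interval of 0.247 to 2.21 (edgeR adjusted p = 1). This fitted interval is too narrow, since summed counts gave a ratio of 0.722 with an exact counting interval of 0.174 to 2.84. From 5 and 6 counts a difference of 2-fold was not detectable at this depth, and edgeR called 0% of all tested genes at this time, with 431 at an unadjusted p under 0.05 and 0 called by DESeq2. At 12 h the mean was 29.0 ± 4.74 CPM over 3 stiff libraries and 22.4 ± 1.82 CPM over 2 soft libraries (SD), a fold of 1.27 (95% interval 0.978 to 1.65, edgeR adjusted p = 0.311). The 3 stiff libraries all lay above the 2 soft ones, at a time when 6.6% of tested genes were called between substrates, 5.36% of all being higher on stiff. In the 2 rounds with both libraries stiff was 1.20 and 1.14 times soft. The lowest-depth library of the series, round 2 on stiff at 12 h, also had the highest Rarb level of that time, 34.4 CPM from 83 counts with an exact 95% counting interval of 27.4 to 42.6 CPM, and it has no soft partner. Without it the log2 fold change was 0.24 (edgeR adjusted p = 0.619), against 0.35 with it, and with all libraries thinned to the smallest total it was 0.54 (edgeR adjusted p = 0.182).

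At the later times the substrates lay closer together. At 24 h mean levels were 38.6 ± 8.08 CPM on stiff and 42.2 ± 7.25 CPM on soft, a fold of 0.925 (0.752 to 1.14, edgeR adjusted p = 1). At 36 h the means were 44.3 ± 5.30 CPM on stiff and 42.1 ± 3.40 CPM on soft, a fold of 1.06 (0.853 to 1.31, edgeR adjusted p = 0.962; SD, n = 3 each). At 24 h 0% of tested genes were called by edgeR, 358 had an unadjusted p under 0.05 and DESeq2 also called 0. The 358 are again less than a share of 0.05 of the 11857 tested genes. At 36 h 0.0675% were called in either direction. The libraries of the 2 substrates overlapped at both times. Averaged over the 4 times with equal weight the fold of stiff over soft was 0.979 (0.765 to 1.25, edgeR adjusted p = 0.99), where 0.447% of tested genes were called. The 0 h libraries enter this mean, so its fitted interval is too narrow as well.

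**Figure D3:**
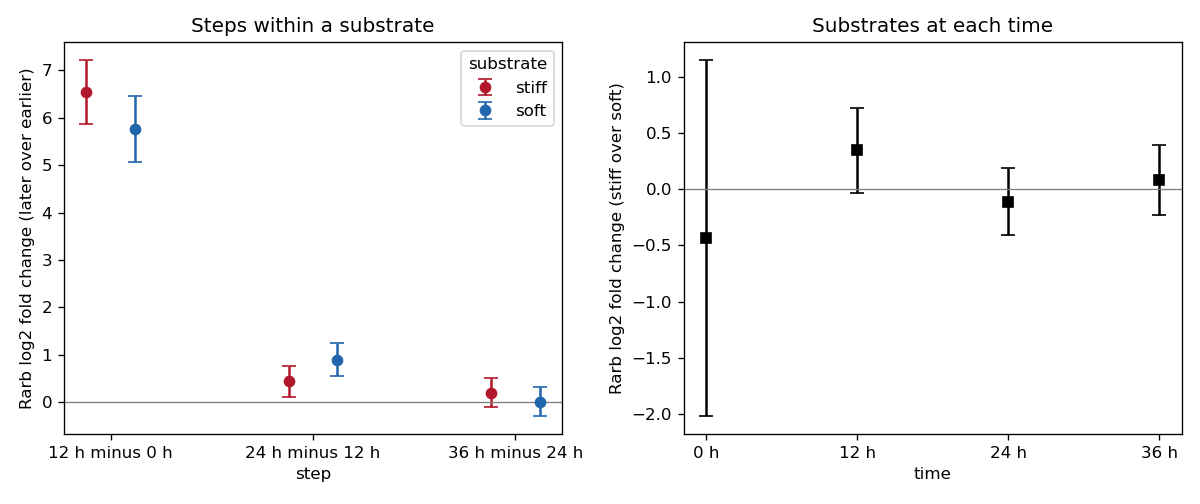
Fitted log2 fold changes of Rarb with 95% intervals: the 3 steps on stiff (red) and soft (blue), and stiff over soft at each time (black). The first step is 6.55 on stiff and 5.76 on soft, and the later steps are 0.90 or less. Each of the 4 intervals between substrates includes 0. As folds, the first-step bars run from 58.7 to 148.7 on stiff and from 33.6 to 88.0 on soft. They are too narrow, since counting error alone gives 42.3 to 310.1 and 26.3 to 159.4. The stiff over soft bar at 0 h, 0.247 to 2.21 as a fold, is also too narrow, against 0.174 to 2.84 from counting error.

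The course itself was also compared between substrates. The change from 0 h to 12 h was 0.78 larger on stiff on the log2 scale, with a 95% interval of -0.89 to 2.46 (edgeR adjusted p = 0.786), where 1.87% of tested genes were called. The change from 12 h to 24 h differed by -0.46 (-0.94 to 0.02, edgeR adjusted p = 0.321), where 4.44% were called. The change from 24 h to 36 h differed by 0.19 (-0.24 to 0.62, adjusted p = 0.999), and that from 0 h to 36 h by 0.52 (-1.11 to 2.14, adjusted p = 0.963), where 0% and 0.00843% were called. For the step from 24 h to 36 h, 439 genes had an unadjusted p under 0.05, less than a share of 0.05 of the 11857 tested, and DESeq2 called 1. A joint test of whether the substrate difference changed after 0 h gave an edgeR adjusted p of 0.684, where 3.31% of tested genes were called. The smaller second step on stiff and its higher 12 h level share the 3 stiff libraries of 12 h, so they are not independent observations. The step also uses the libraries of 24 h. The wide intervals against 0 h go with the 5 and 6 counts summed there, and as fitted intervals they are still too narrow.

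Ordered by mean level, the 8 groups ran from stiff 0 h (0.276 CPM) and soft 0 h (0.374 CPM), through soft 12 h (22.4 CPM), stiff 12 h (29.0 CPM), stiff 24 h (38.6 CPM), soft 36 h (42.1 CPM) and soft 24 h (42.2 CPM), to stiff 36 h (44.3 CPM). Of the neighbours in this order that were tested, stiff and soft at 0 h and soft at 36 h and 24 h overlapped and did not differ beyond their spread. Stiff and soft at 12 h did not overlap, and their difference did not pass the adjusted test. Soft at 12 h and 0 h, further apart in level, and stiff at 24 h and 12 h passed the test, as given above. The 3 uppermost group means lie within 1 SD of each other. The spread between libraries is given beside that which counting alone would give on average, with no test, and from 2 or 3 libraries it is itself uncertain. The coefficient of variation was 20.9% on stiff at 24 h against 6.47% from counting alone, 17.2% on soft at 24 h against 6.78%, 16.3% on stiff at 12 h against 10.7%, and 12.0% on stiff at 36 h against 7.33%. On soft it was 8.13% at 12 h against 8.86% and 8.08% at 36 h against 8.10%. At 0 h it was below the counting value on both substrates.

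The identifier most like Rarb was ENSRNOG00000013794, with a Pearson correlation of log2 CPM of 0.995 over the 23 libraries. Its level averaged 18.9 ± 5.57, 720.2 ± 11.1, 1437 ± 129 and 1560 ± 92.2 CPM at 0, 12, 24 and 36 h on stiff (SD, n = 3 each). On soft it averaged 20.3 ± 3.11, 808.4 ± 51.5, 1448 ± 56.6 and 1493 ± 86.5 CPM (SD, n = 3 each, 2 at 12 h). Both identifiers had a low 0 h level, a steep first step and a flatter course later. That likeness rests largely on the 0 h libraries: over the 17 later ones the correlation was 0.778, and 692 tested genes were more like Rarb. Of the other 11856 tested genes 352, or 2.97%, had a correlation over 0.9 with Rarb and 124 had one under -0.9. The 23 points share libraries and their scaling, and the correlation is a description.

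**Figure D4:**
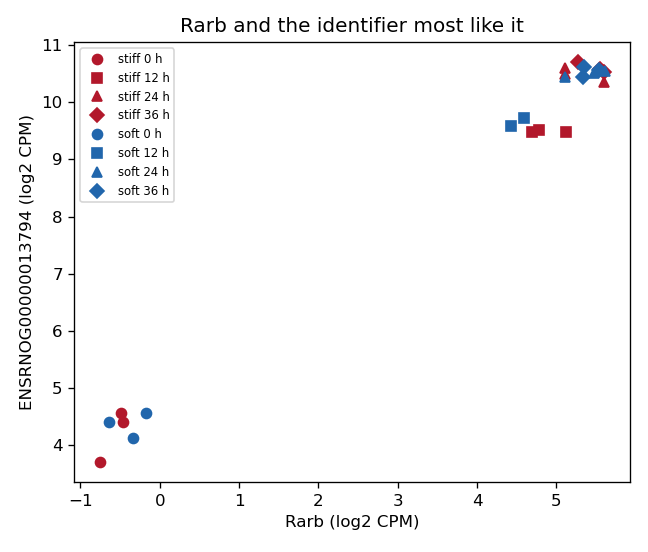
Log2 CPM of Rarb (x axis) and of ENSRNOG00000013794 (y axis) in each of the 23 libraries, with stiff in red, soft in blue and a symbol for each time. The 6 libraries at 0 h lie apart from the 17 later ones, and the correlation is 0.995 with them and 0.778 without.

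The identifier given as Tgm2 was close to undetected throughout. ENSRNOG00000012956 had 62 counts in all 23 libraries together, and 6 libraries had 0. The stiff libraries of 0 h held 0, 2 and 1 counts, those of 12 h 1, 0 and 1, those of 24 h 4, 6 and 8, and those of 36 h 2, 3 and 2. In the soft libraries there were 0 counts in all 3 of 0 h, then 1 and 7 counts in those of 12 h, 4, 5 and 6 in those of 24 h, and 3, 6 and 0 in those of 36 h. Its pooled level was highest at 24 h on both substrates, 0.969 CPM on stiff and 0.911 CPM on soft. Its counts spread widely among the soft libraries of 12 h and 36 h. All 6 libraries at 24 h had at least 4 counts and no library at 0 h had more than 2. It did not pass the filter on low counts, and no test was made.

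Summed over both substrates, its level was 0.0904 CPM at 0 h (exact 95% counting interval 0.0186 to 0.264), 0.466 CPM at 12 h (0.223 to 0.857), 0.942 CPM at 24 h (0.648 to 1.32) and 0.633 CPM at 36 h (0.362 to 1.03). The 33 counts at 24 h against 3 at 0 h gave a ratio of 10.4, with an exact interval of 3.27 to 53.1. The 10 counts at 12 h against the same 3 gave 5.15 (1.33 to 29.1), and the 16 at 36 h gave 6.997 (2.003 to 37.5). Each of these ratios uses the same 3 counts at 0 h, and the intervals cover counting error and not the spread between libraries. At 12 h, 7 of the 10 counts came from 1 soft library, round 3. Between substrates, all times together, 30 counts on stiff and 32 on soft gave a ratio of 0.884 (0.519 to 1.503). A substrate difference within that interval was not detectable at this depth.

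**Figure D5:**
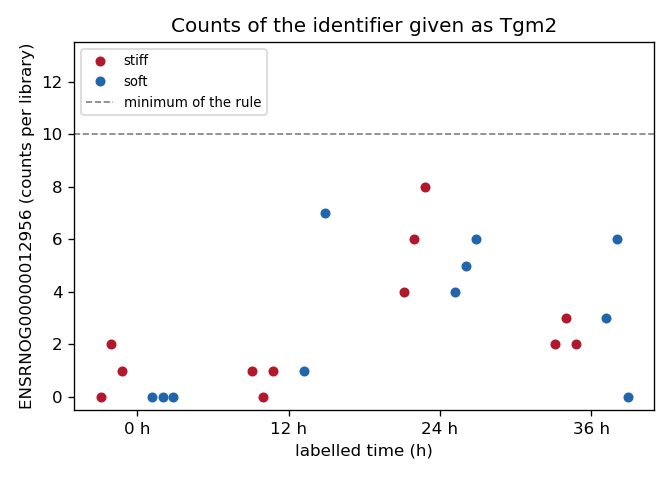
Counts of ENSRNOG00000012956, given as Tgm2, in each library at 0, 12, 24 and 36 h, stiff (red) left of soft (blue), with the minimum of 10 counts as a dashed line. No library reaches the line, and the highest has 8 counts, on stiff at 24 h.

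Side by side, both identifiers had their lowest pooled level at 0 h on either substrate, though for Tgm2 on stiff the 0.199 CPM at 12 h and 0.169 CPM at 0 h rest on 2 and 3 counts. They stood on very different numbers of counts. Rarb had 3046 counts over the series and Tgm2 62, and in the 6 libraries at 24 h Rarb had 181 to 319 counts and Tgm2 4 to 8. These are counts of tags near the 3' end and were not compared per length.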

How the data were processed

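Per the labels' protocols, a column kit with a step against genomic DNA gave the RNA of pelleted cells, and a core facility made QuantSeq FWD libraries, whose reads start near transcript 3' ends. The tools in the submitters' processing notes are HISAT2 2.1.0, HTSeq and FastQC, and the build is rn6. For strand setting, annotation release, trimming and duplicates the sources used here give nothing, so reads of overlapping genes could be shared. The values deposited by the authors are raw whole-number counts for each Ensembl identifier, in 23 columns, all matched to labels. The 2 members, the lists and the tests were chosen with earlier results of these data known.

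Counts were tested with edgeR 4.0.16 (R 4.3.3): quasi-likelihood F tests on 1 fit of 8 group means to 23 libraries, TMM factors (0.933 to 1.03) and filterByExpr (minimum count 10, minimum total 15), which kept 11857 genes, with Benjamini-Hochberg adjustment over all of them. Standard errors and fitted 95% intervals were derived from the F statistic, and log2 CPM used a prior count of 2. For any comparison that uses the 0 h libraries such standard errors are too small. They are not printed, and the fitted intervals given for these comparisons are too narrow. Intervals on counts are exact Poisson or conditional binomial at 95%. The identifiers named are the members and the 1 most correlated with Rarb; likeness to Tgm2 was not computed, since its counts are too low, and its planned tests were not made for that reason. The script was tested on simulated data. Replicates differed by more than sampling noise (chi-square per degree of freedom 2.42 to 9.11). Alternatives were other scalings and filters, DESeq2 1.42.0, the round as a block, the compared groups alone, thinning and leaving out each library. Gene lists and cell type markers could not be tied to identifiers, so neither the cell type nor other pathway genes were checked. Promoter windows come from RefSeq (GRCr8), matched by symbol. Figures used matplotlib 3.10.9.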

Additional observations from a re-analysis of the deposited data

How the results depend on the processing

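For Rarb 18 results were recomputed in 320 alternative fits, and 15 of the 18 kept their direction and their side of the threshold in all of them. The rise from 0 h to 12 h ranged in log2 fold change from 6.38 to 6.66 on stiff and from 5.04 to 6.01 on soft, and the rise from 12 h to 24 h on soft from 0.79 to 1.11. The call from 12 h to 24 h on stiff was lost when libraries were thinned to the smallest total (log2 fold change 0.45), and leaving out 1 library gave 0.26 to 0.57 with 3 of 6 calls lost; thinning and leaving out leave fewer counts or libraries. The change from 24 h to 36 h on soft, 0.01 and not called, turned to -0.0012 with RLE factors, -0.033 with upper-quartile factors, -0.0030 with no filter, -0.012 with the filter of 5 CPM in 3 libraries, -0.0024 with the 2 groups alone and -0.0024 with DESeq2, and leaving out 1 library gave -0.13 to 0.11. Stiff over soft averaged over 4 times, -0.03 and not called, ranged from -0.073 to 0.030 with 1 library left out. Where 1 soft 12 h library was left, it was assumed to vary like the other groups. The round as a replicate block changed no call, and its stiff against soft log2 fold change at 12 h was 0.37. Libraries of the same round had a median correlation of deviations of 0.0551 over 77 pairs, with 11 pairs over 0.1. For libraries of different rounds the median was -0.0283, with 0 of 154 pairs over 0.1. Deviations from a group mean sum to 0 within the group. The second median is therefore tied to the first and is no separate comparison. The values of the same round are a hint of a shared round, but most of those pairs were under the 0.1 required. The fit without the block was therefore kept. For stiff against soft at 0 h no fit of the compared groups alone was possible, since Rarb did not pass the filter there, and for the 2 results that use all groups that fit is the same as the one reported. The 1 to 3 Rarb counts per library at 0 h and the 8 or fewer of Tgm2 limit the depth of every statement on them.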
